A study of Rattus norvegicus with 4 samples.

Results

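Regulators of G protein signalling, the RGS proteins, are a family that shares a domain of the same name, and 10 of its genes were followed in fat of obese and lean rats: Rgs1, Rgs2, Rgs3, Rgs4, Rgs5, Rgs10, Rgs14, Rgs16, Rgs18 and Rgs19. A gene was taken where an array row carried its symbol and no other, and rows were to be selected on their mean over the 4 arrays where a gene had several. Of the 10 genes, 9 had such a row, among 14506 genes in all, and each of the 9 had a single row, so the means decided nothing. The row of Rgs10 also carries the symbol Tial1, so Rgs10 is not analysed here. The family was picked from earlier results of these arrays, with the obese minus lean differences of its genes in view, so the values below describe it and are no independent evidence that it is affected.

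The tissue was retroperitoneal white fat, a visceral depot, of male WNIN/Ob rats 4 months of age on stock diet, without treatment. There were 2 lean and 2 obese rats, each hybridised to its own Affymetrix Rat Gene ST array. Lean and obese rats belong to the same strain. The labels give no allele for the obese phenotype and no other difference between the groups. Values are log2 of the deposited intensities, differences are obese minus lean on that log2 scale, and a gene is said to rise or fall only where limma's adjusted p over all 14506 genes was under 0.05. The smallest p that 2 rats per group allow in a two-sided exact permutation test is 0.333, so the calls depend on limma's pooling of the spread over genes.

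RGS proteins speed up the hydrolysis of GTP by the alpha subunits of heterotrimeric G proteins, and so shorten the signal that an activated receptor passes on to adenylyl cyclase, phospholipase C and ion channels. Members of the R4 subfamily, to which Rgs1, Rgs2, Rgs3, Rgs4, Rgs5, Rgs16 and Rgs18 belong, are small proteins that hold little more than the RGS domain. Rgs10 and Rgs14 belong to the R12 subfamily and Rgs19 to the RZ subfamily. Several members are known for a cell type of their own: Rgs1 for lymphocytes and myeloid cells, where it dampens chemokine receptors, Rgs18 for megakaryocytes, platelets and other cells of blood origin, and Rgs5 for pericytes.

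Rgs1 and Rgs18 are the members that rose, and they lie close together. In the RefSeq annotation of assembly GRCr8, 6 of the 10 genes are on chromosome 13, and the protein-coding genes from Rgs2 to Rgs18 there are Rgs2, Rgs13, Rgs1, Rgs21 and Rgs18, in this order. Their neighbour Rgs2 did not pass the test, with a 95% interval of -0.84 to 1.12, so a rise of Rgs2 is not excluded. The sequences just upstream of Rgs1, Rgs18 and Rgs2 are shown because these 3 genes share a cluster but not a call. Each is the 250 bases before the RefSeq start, 5′ to 3′ on the strand of the gene, which is the minus strand for all 3 genes. The windows are chr13:58573188-58573437 for Rgs1, chr13:59066343-59066592 for Rgs18 and chr13:58352667-58352916 for Rgs2, build GRCr8, and capitals mark motif matches.
Rgs1: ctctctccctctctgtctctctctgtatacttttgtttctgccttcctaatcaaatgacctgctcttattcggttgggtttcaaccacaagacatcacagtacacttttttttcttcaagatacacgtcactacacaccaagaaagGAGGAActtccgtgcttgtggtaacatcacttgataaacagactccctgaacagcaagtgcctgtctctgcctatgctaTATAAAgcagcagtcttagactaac
Rgs18: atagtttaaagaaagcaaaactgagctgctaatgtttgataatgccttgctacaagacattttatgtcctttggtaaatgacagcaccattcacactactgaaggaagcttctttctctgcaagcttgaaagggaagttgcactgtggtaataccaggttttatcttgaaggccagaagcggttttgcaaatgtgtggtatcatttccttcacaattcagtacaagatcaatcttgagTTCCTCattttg
Rgs2: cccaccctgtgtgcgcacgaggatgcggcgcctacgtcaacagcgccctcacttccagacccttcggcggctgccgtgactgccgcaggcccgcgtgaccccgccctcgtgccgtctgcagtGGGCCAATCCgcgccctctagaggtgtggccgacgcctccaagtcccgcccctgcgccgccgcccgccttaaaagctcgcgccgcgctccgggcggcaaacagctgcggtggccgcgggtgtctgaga

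The motifs searched on both strands were TATAAA, a box bound by the general transcription machinery, CCAAT, a box bound by the factor NF-Y, TGANTCA (AP-1), GAGGAA (a core bound by ETS factors such as PU.1), TGACGTCA (cyclic AMP response element) and a loose NF-kB pattern of G bases, a free spacer and C bases. The Rgs1 window holds TATAAA at 25 to 20 bases before the start and GAGGAA at 104 to 99 bases before it. The Rgs18 window holds GAGGAA on the opposite strand, as TTCCTC, at 12 to 7 bases before the start. The Rgs2 window holds CCAAT inside a match to the loose NF-kB pattern, so that these matches overlap. Over 27457 promoter windows of the same length, 13.1% hold TATAAA, 34.3% CCAAT, 6.36% TGANTCA, 23.2% GAGGAA, 1.70% TGACGTCA and 43.5% the loose NF-kB pattern. Of the 10 family windows, 5 hold GAGGAA, 3 TATAAA, 3 CCAAT, 5 the loose NF-kB pattern, and 0 the AP-1 or the cyclic AMP motif. Besides Rgs1 and Rgs18, the windows with GAGGAA are those of Rgs3, Rgs5 and Rgs16. These genes did not pass and had differences of -0.18, -0.64 and -0.92, so GAGGAA does not set the genes that rose apart. The windows of Rgs1 and Rgs18 are poor in G and C, at 42.8% and 38.4%, while that of Rgs2 is at 72.4%, and the median of all windows is 52.0%. Such matches describe letters and show no binding.

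On the 4 arrays the deposited intensities had medians of 39.9 to 44.5 over all rows. The adipocyte marker Adipoq was at 11.9 to 12.3 on every array, as fits fat. Skeletal muscle genes stood apart in lean rat 1, where 16 measured members summed to an intensity of 42670 against 656 to 882 on the other arrays, as did 7 mesothelial genes, at 1043 against 219 to 309. Obese rat 2 stood apart for 4 erythroid genes, at 1365 against 4355 to 8119, and lean rat 2 had the highest receptor background and the narrowest spread of log2 values, with an interquartile range of 2.24 against 2.63 to 2.77. Over all genes tested 122 passed, 112 higher and 10 lower in obese rats, which is 0.841% of them, and 15.3% were at an unadjusted p under 0.05, the share against which the unadjusted counts of each list below are to be read. The median difference of all genes was 0.0005.

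Of the 9 measured RGS genes, 2 rose, 0 fell and 7 did not pass, against a background of 0.841% of all genes called (0.772% higher and 0.0689% lower). The groups did not overlap for 6 of the 9, with obese rats higher for 3, Rgs1, Rgs18 and Rgs19, and lower for 3, Rgs3, Rgs4 and Rgs16, where the shares over all genes were 26.4% and 21.3%. The median difference of the 9 genes was 0.07. The R4 subfamily held both rises among its 7 members, with a median of -0.18, so most of this subfamily did not move with Rgs1.

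**Figure D1:**
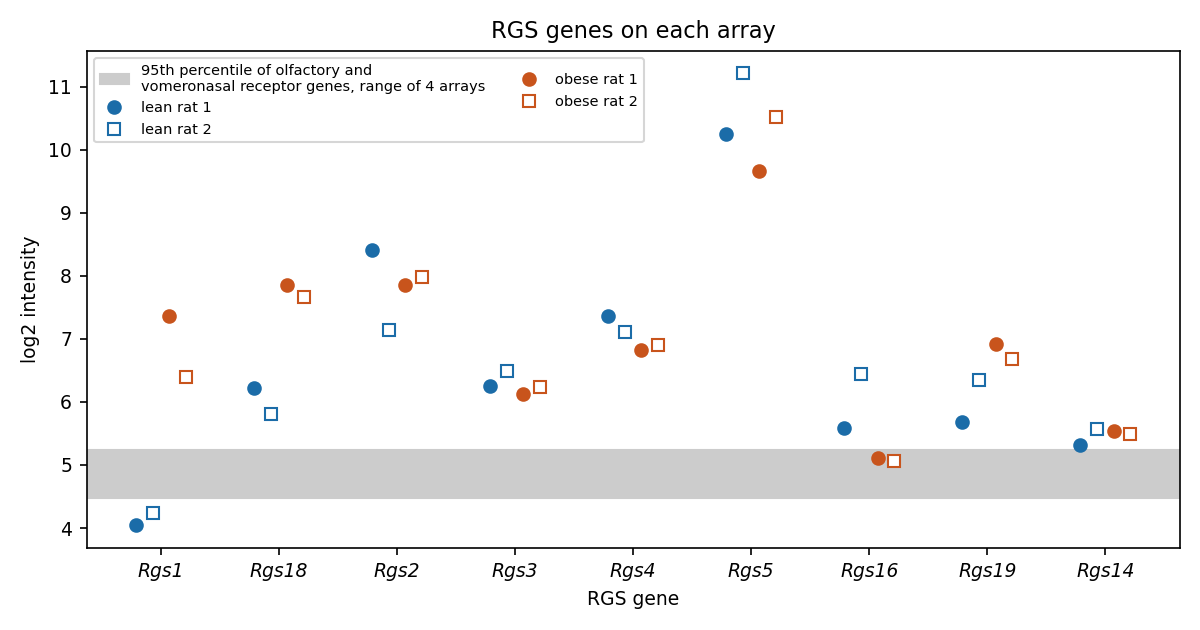
Log2 intensity (vertical axis) of the 9 measured RGS genes (horizontal axis) on each array, with lean rats in blue, obese rats in orange, and the grey band marking the 95th percentile of olfactory and vomeronasal receptor genes over the 4 arrays. Rgs1 lies under the band in both lean rats and above it in both obese rats, at 6.40 and 7.36, and levels of different genes come from different probes and are not comparable.

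Rgs1, which limits chemokine receptor signalling in leukocytes, was at 4.04 and 4.24 in the lean rats and at 7.36 and 6.40 in the obese rats. Both lean values lay close together and far under both obese values, which differed from each other by 0.96. The difference was 2.74 ± 0.33 (SE, n = 2 per group), 6.68-fold on the values as measured, with a 95% interval of 1.97 to 3.51 and an adjusted p of 0.018. It ranked 21 among all 14506 genes by size of increase. With a rat left out, which leaves 1 rat in a group, the difference ran from 2.26 to 3.22.

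The lean level of Rgs1 was within background. Fat is not known to express most olfactory and vomeronasal receptor genes, and 188 of them served to mark where signal ends. Rgs1 exceeded 86.7% of them in lean rat 1 and 80.9% in lean rat 2, under their 95th percentile of 4.68 and 5.24 on those arrays, whereas it exceeded 100% and 99.5% of them in the obese rats. With the lean mean of that 95th percentile, 4.96, as the highest lean level, the obese mean of 6.88 was at least 3.79-fold higher. How low Rgs1 was in lean fat is therefore not measured here.

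Rgs18, an RGS protein of megakaryocytes and other blood-derived cells, was at 6.22 and 5.80 in the lean rats and at 7.85 and 7.66 in the obese rats, above background on all 4 arrays. The groups were well apart, while rats of the same group differed by 0.42 (lean) and 0.19 (obese). It rose by 1.74 ± 0.28 (SE, n = 2 per group), 3.35-fold, with a 95% interval of 1.09 to 2.40 and an adjusted p of 0.041. This call stands near the threshold: it was lost with quantile normalization (1.68, adjusted p = 0.067), over all rows of the table (adjusted p = 0.067) and on the log2(value + 16) scale (1.52, adjusted p = 0.052). With a rat left out, which leaves 1 rat in a group, the difference of Rgs18 ran from 1.53 to 1.95.

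Markers of blood-derived cells were measured beside both genes, because in whole tissue more cells of a type and more RNA per cell cannot be told apart. Of 19 measured macrophage genes, 8 rose and 0 fell (0.772% of all genes rose), and 15 were higher in obese rats without overlap (26.4% of all genes were). The list's summed intensity was 4536 to 4705 in lean and 12981 to 19094 in obese rats. The marker lists were chosen with earlier results of these arrays known, so such counts describe them and are no independent evidence. The macrophage genes with the highest means were the mannose receptor gene Mrc1 (1.61, adjusted p = 0.099), Cd14 (0.15, adjusted p = 0.885), which encodes a co-receptor for endotoxin, and the lysosomal Cd68 (2.04, adjusted p = 0.075), none of which passed. Relative to the lean mean, the median macrophage gene was 2.07 and 1.34 higher in obese rats 1 and 2, and Rgs18 1.84 and 1.65. Rgs1 was higher in obese rat 1 too, but its size is not set against the list, since its lean level was within background. The part of macrophage number in the rise of Rgs1 or Rgs18 was not tested.

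Lymphocyte markers were low and did not move with Rgs1. Of 12 T cell genes none passed by limma (1 at an unadjusted p under 0.05), 5 were within background on every array, and their summed intensity was 276 to 351 in lean and 274 to 301 in obese rats. Of 8 measured B cell genes none passed (1 at an unadjusted p under 0.05), 4 were within background on every array, and the sum was 196 to 262 in lean and 165 to 179 in obese rats. For natural killer cells, 7 genes summed to 255 to 306 in lean and 203 to 247 in obese rats. None passed by limma (2 at an unadjusted p under 0.05). For T, B and natural killer cells the higher lean sum was that of lean rat 2, the array with the highest receptor background. A fall in obese rats is therefore not read from these sums. For 7 dendritic cell genes the sum was 438 to 590 in lean and 581 to 645 in obese rats. Clec10a alone made up 170 and 243 of it in lean and 403 and 311 in obese rats. None of the 7 passed by limma (1 at an unadjusted p under 0.05). For 8 neutrophil genes the sum was 484 to 581 and 455 to 703, and none passed by limma (0 at an unadjusted p under 0.05). Of these 8, 4 were within background on every array, and Mpo alone made up an intensity of 311 to 550.

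Platelet and megakaryocyte markers were set beside Rgs18 in particular. Of 10 listed genes 5 were measured, and none passed by limma (1 at an unadjusted p under 0.05). Without overlap 1 of them was higher and 2 were lower in obese rats, where 26.4% and 21.3% of all genes were. Of the 2 lower genes, 1 was within background on every array and the other exceeded it on only 1 array. Their summed intensity was 221 to 438 in lean and 248 to 291 in obese rats. Pf4, a chemokine of platelet granules, was at 6.38 and 8.01 in lean and 6.54 and 7.12 in obese rats, so the groups overlapped. The platelet list therefore did not rise where Rgs18 did, with 5 of its listed genes not measured. Of 4 measured erythroid genes, 3 were lower in obese rats without overlap, where 21.3% of all genes were. None of the 4 passed by limma (2 at an unadjusted p under 0.05), with a median of -1.30.

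**Figure D2:**
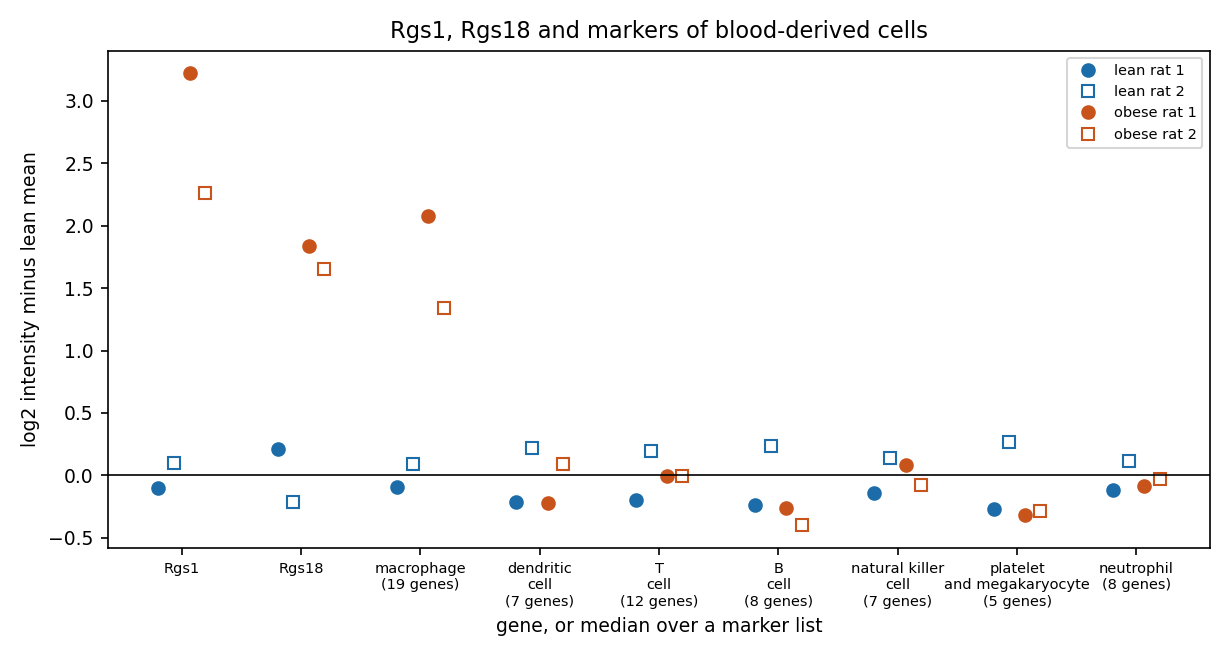
Log2 intensity minus the lean mean (vertical axis; for Rgs1 that mean was within background) for Rgs1, Rgs18 and the median gene of 7 marker lists (horizontal axis) on each array. Rgs1, Rgs18 and the macrophage list stand above 1.3 in both obese rats, while the other lists lie between -0.40 and 0.27 on every array.

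Rgs19, also known as GAIP, an RZ member that acts on Gi-type alpha subunits, was at 5.69 and 6.34 in the lean rats and at 6.91 and 6.67 in the obese rats. The groups did not overlap, but the lean rats differed by 0.66, nearly as much as the groups. Its difference was 0.78 ± 0.30 with an adjusted p of 0.288, and it was 0.45 without lean rat 1 and 1.11 without lean rat 2. Rgs14, an R12 member that also binds Ras-type proteins, was at 5.31 and 5.58 in lean and 5.54 and 5.49 in obese rats. Its difference of 0.07 had a 95% interval of -0.47 to 0.61 and an adjusted p of 0.915.

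Rgs5 and Rgs4, both found in the cells around vessels, did not pass. Rgs5, a marker of pericytes, was at 10.25 and 11.21 in the lean rats and at 9.67 and 10.52 in the obese rats. Rats of the same group differed by 0.96 and 0.85, more than the group difference of -0.64 ± 0.44 (adjusted p = 0.522), and the groups overlapped. Rgs4, which acts on Gi and Gq alpha subunits and is best known from neurons, was at 7.37 and 7.10 in lean and 6.82 and 6.90 in obese rats, without overlap. Its difference was -0.37 ± 0.27 (adjusted p = 0.548).

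Of 15 measured genes of pericytes and vascular smooth muscle, none passed by limma, and the median difference was -0.52. Of them, 7 had both obese rats below both lean rats and 2 above, where 21.3% and 26.4% of all genes did. Their summed intensity was 3736 to 7550 in lean and 2999.6 to 3091 in obese rats, with the highest sum in lean rat 1, where muscle genes were high. Among the brightest of them, the smooth muscle actin gene Acta2 was at 11.52 in lean rat 1 and 10.05 in lean rat 2, whereas the adhesion molecule gene Mcam was at 9.78 and 10.11. The 2 genes higher in obese rats without overlap were Pdgfrb (0.69, adjusted p = 0.321) and Cspg4 (0.37, adjusted p = 0.574), so the list did not run one way. Notch3 was lower without overlap (-0.38, adjusted p = 0.544). The groups overlapped for Abcc9 (-0.47), Cox4i2 (-0.52), Kcnj8 (0.05) and Higd1b (0.06), so no direction is read for pericytes. The part of vessel wall cells in the values of Rgs4 and Rgs5 was not tested.

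Rgs2, which favours the Gq alpha subunit and tempers constriction of arteries, was at 8.42 and 7.14 in the lean rats and at 7.86 and 7.98 in the obese rats. The lean rats lay on either side of the obese rats and differed by 1.27, the widest gap within a group among the 9 genes. The difference was 0.14 ± 0.43 with a 95% interval of -0.84 to 1.12 (adjusted p = 0.907). It was 0.77 without lean rat 1, the rat with high muscle genes, and -0.50 without lean rat 2. Whether muscle RNA raised Rgs2 in lean rat 1 was not tested.

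Rgs16, an R4 member that is induced in activated lymphocytes and follows feeding and the clock in liver, was at 5.58 and 6.44 in the lean rats and at 5.11 and 5.06 in the obese rats. Both obese values were lower and almost equal, while the lean rats differed by 0.86. The difference was -0.92 ± 0.31 (95% interval -1.64 to -0.20, adjusted p = 0.242). It was -1.35 without lean rat 1 and -0.49 without lean rat 2. Rgs3, whose longer forms carry further domains, was at 6.25 and 6.49 in lean and 6.13 and 6.24 in obese rats. The groups of Rgs3 did not overlap but came within 0.02 of each other at 6.25 and 6.24, and the difference was -0.18 ± 0.25 (adjusted p = 0.771).

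**Figure D3:**
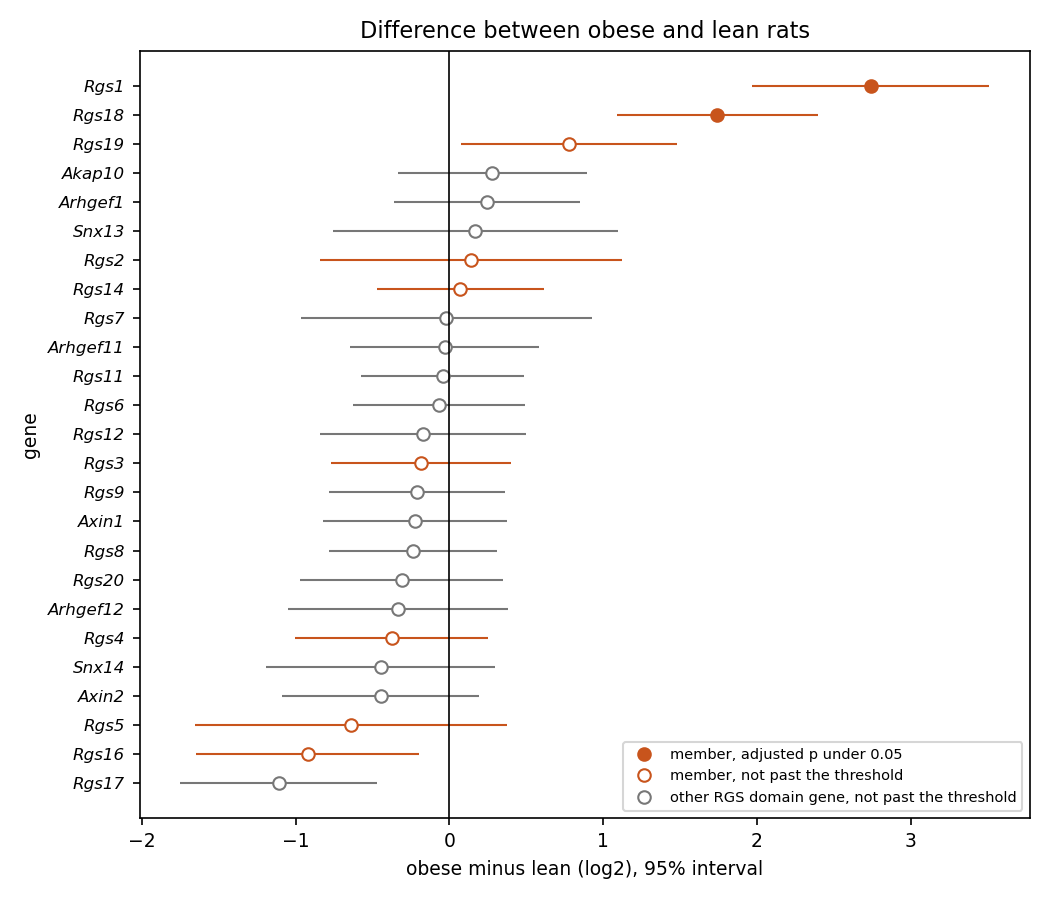
Obese minus lean on the log2 scale with 95% intervals from limma (horizontal axis) for 9 measured RGS genes in orange and 16 other genes with an RGS domain in grey (vertical axis), filled where the adjusted p was under 0.05. Rgs1 at 2.74 and Rgs18 at 1.74 stand to the right of all others, and the lowest value is Rgs17 at -1.11. Rgs1, Rgs6, Rgs8, Rgs17 and Rgs20 were within background on some or all arrays, which limits their sizes.

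The rest of the family gave no call. Of 19 further genes with an RGS or RGS-like domain 16 were measured, and none passed by limma (1 at an unadjusted p under 0.05), with a median of -0.19 and a range of -1.11 to 0.28. That 1 gene was Rgs17, a relative of Rgs19, at 4.88 and 5.45 in lean and 3.86 and 4.25 in obese rats. Its difference was -1.11 ± 0.28 (adjusted p = 0.133), and with a rat left out it ran from -1.40 to -0.82. Both obese values of Rgs17 were within background, so its obese level is not measured here. Rgs6 was within background on every array. Rgs13 and Rgs21, which flank Rgs1, had no row of their own symbol and are not analysed here.

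Proteins that bind RGS proteins were measured too, 3 of 4 listed, and none passed by limma (2 at an unadjusted p under 0.05). Rgs7bp, an anchor for RGS proteins of the R7 subfamily, was at 6.48 and 6.53 in lean and 7.15 and 7.77 in obese rats (0.96, adjusted p = 0.220). Gnb5, the beta subunit that pairs with the R7 subfamily, was at 0.71 (adjusted p = 0.291).

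The neighbours of the Rgs2 to Rgs18 cluster were looked at for a difference shared by the region. Uchl5, the protein-coding gene next to Rgs2, was at 0.18 (adjusted p = 0.805), with overlapping groups. Brinp3, next to Rgs18, was within background on every array, so it says nothing of a shared difference. Pla2g4a, the cytosolic phospholipase A2 gene farther on that side, was at 0.74, higher in obese rats without overlap (adjusted p = 0.285). Calls in the cluster were thus those of Rgs1 and Rgs18, with Rgs2, Uchl5 and Pla2g4a not past the threshold.

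The proteins that RGS proteins act on or beside followed. Of 121 listed genes for G protein subunits, their effectors, receptor kinases, arrestins and receptors, 108 were measured. Of these, 3 rose and 0 fell, where 0.772% of all genes rose and 0.0689% fell, and the median difference was 0.07. Ccr2 was at 7.70 and 7.20 in lean and 9.91 and 9.51 in obese rats. Ccr1 was at 6.78 and 6.74 in lean and 9.16 and 8.41 in obese rats. C3ar1 was at 7.11 and 6.84 in lean and 8.65 and 8.71 in obese rats. The groups of these 3 genes lay well apart. All 3 rises were in receptors of leukocytes that couple to Gi: the chemokine receptors Ccr2 (2.26 ± 0.33, adjusted p = 0.028) and Ccr1 (2.03 ± 0.33, adjusted p = 0.042) and the complement receptor C3ar1 (1.70 ± 0.29, adjusted p = 0.045). That list had 26 measured genes and a median of -0.0020, so most of its members did not rise. Like the other lists, it was chosen with earlier results of these arrays known. With quantile normalization all 3 calls were lost (Ccr2 adjusted p = 0.051, Ccr1 adjusted p = 0.080, C3ar1 adjusted p = 0.070). Over the 10 other settings Ccr2 was called in 9, Ccr1 in 6 and C3ar1 in 5. Ccr1 lost its call without lean rat 2 (2.01, adjusted p = 0.051) and without obese rat 1 (1.65, adjusted p = 0.075), and C3ar1 without obese rat 1 (1.73, adjusted p = 0.054) and without obese rat 2 (1.67, adjusted p = 0.055).

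None of 16 G protein alpha subunit genes passed. In the Gi and Go group, the main substrates of most RGS proteins, 8 genes had a median of 0.10 and ran from -0.32 to 0.41, with Gnao1 at 0.41 and Gnat3, within background on every array, at -0.32, and by limma 0 were at an unadjusted p under 0.05. The 4 genes of the Gq group had a median of 0.21, with Gna11 at 0.48 and Gna14, within background in both lean rats, at 0.20, and 0 at an unadjusted p under 0.05. The 4 genes of the Gs and G12 groups had a median of 0.41, with Gna13 at 0.69 and Gna12 at 0.65, and 1 at an unadjusted p under 0.05. Among 14 beta and gamma subunits none passed by limma (4 at an unadjusted p under 0.05, against 15.3% of all genes). Gnb4, a beta subunit, came nearest, at no more than 6.19 in lean and at 7.92 and 7.30 in obese rats (1.51, adjusted p = 0.077). With a rat left out it ran from 1.21 to 1.82. Gng7, a gamma subunit, was at -0.79 (adjusted p = 0.235), and at -1.06 without lean rat 1.

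Downstream of the G proteins, none of 12 adenylyl cyclase and phospholipase C beta genes passed by limma (3 at an unadjusted p under 0.05). Adcy2, an adenylyl cyclase, was at 6.27 and 5.91 in lean and 5.10 and 4.80 in obese rats (-1.14, adjusted p = 0.101). Plcb2, the phospholipase C beta of blood cells, was at 4.49 and 5.17 in lean and 6.24 and 5.88 in obese rats (1.23, adjusted p = 0.123), and its lean values were within background. With a rat left out Adcy2 ran from -1.32 to -0.96 and Plcb2 from 0.89 to 1.57.

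Of 10 receptor kinase and arrestin genes, which switch receptors off, none passed by limma (1 at an unadjusted p under 0.05). Arrb1, a beta-arrestin, was at 7.14 and 7.39 in lean and 8.65 and 8.59 in obese rats (1.35, adjusted p = 0.089), and the receptor kinase gene Grk2 was at 0.59. Of 30 receptors of adipocytes and vessel walls none passed (11 at an unadjusted p under 0.05, against 15.3% of all genes), with a median of 0.00099. The adrenergic receptor gene Adrb3 (-1.60, adjusted p = 0.067) and the prostaglandin receptor gene Ptger2 (1.31, adjusted p = 0.094) had the smallest p. With a rat left out Adrb3 ran from -1.81 to -1.39 and Ptger2 from 1.02 to 1.61.

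**Figure D4:**
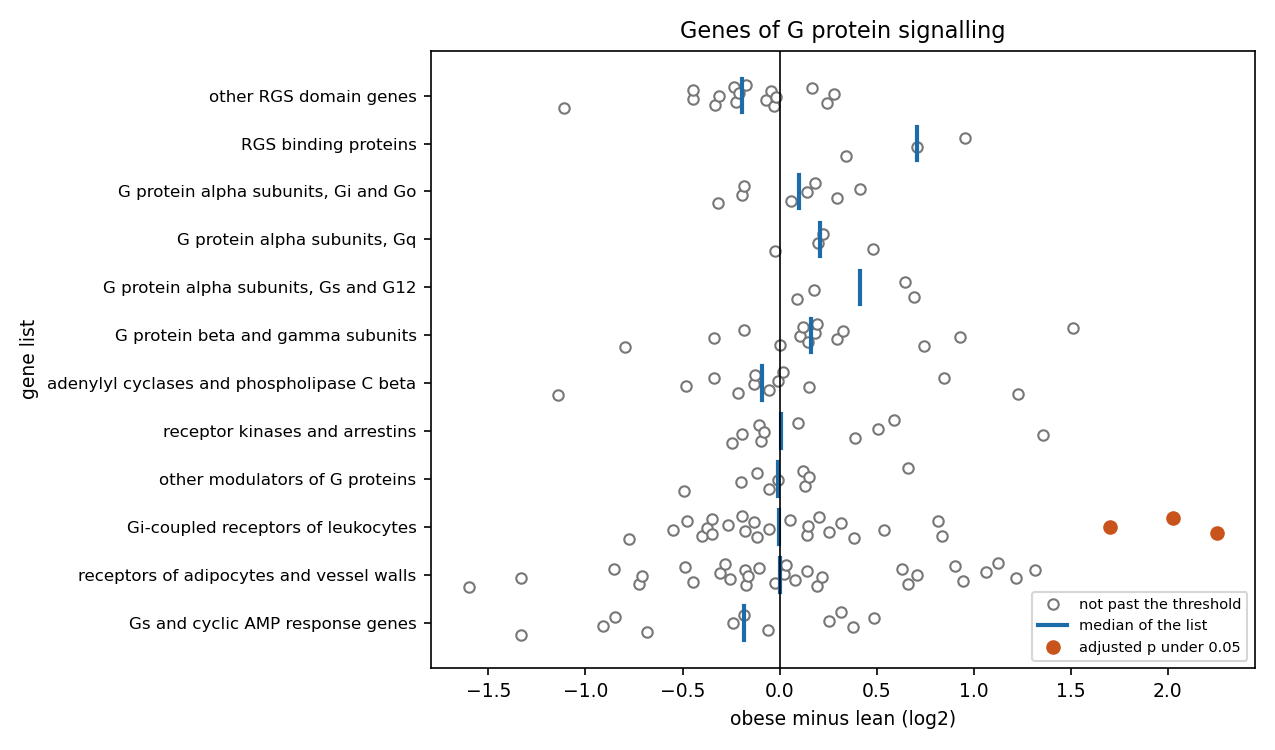
Obese minus lean on the log2 scale (horizontal axis) for each measured gene of 12 lists around G protein signalling (vertical axis), with a bar at the median of each list and filled points where the adjusted p was under 0.05. The 3 filled points, Ccr2, Ccr1 and C3ar1, are in the list of Gi-coupled receptors of leukocytes.

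The genes most like Rgs1 were sought among 7253 genes whose mean was at or above the median gene, by the root mean square distance between log2 values over the 4 arrays, each gene centred on its own mean. The nearest was Laptm5, which encodes a lysosomal membrane protein of blood cells and is also in the macrophage list, at a distance of 0.034, with 6.83 and 7.03 in lean and 10.16 and 9.11 in obese rats. Next came the linker histone gene H1f5 (0.126), Glipr1 (0.157), the secreted nuclease gene Dnase1l3 (0.183) and Angptl8 (0.191), a secreted regulator of lipoprotein lipase. By Pearson correlation 2 of these 5, Laptm5 and H1f5, were again among the first 5. With quantile normalization Laptm5 (adjusted p = 0.063), H1f5 (adjusted p = 0.051) and Glipr1 (adjusted p = 0.070) lost their own calls. Glipr1 was called in 5 of 10 other settings and lost its call without lean rat 2 (2.71). With 4 arrays in 2 groups this likeness mostly restates the difference between the groups. The lean values of Rgs1 were within background, so a small distance does not show a change of the same size.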

How the data were processed

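Retroperitoneal fat of 2 lean and 2 obese rats was measured on Affymetrix Rat Gene ST arrays, from 500 mg of tissue and 100 ng of RNA, per the labels' protocols. The authors deposited 1 intensity per row and array on a linear scale; the submitters' processing notes name RMA, which commonly ends in quantile normalization, but the deposited values go against that step over the rows held here, with medians of 39.9 to 44.5 and log2 interquartile ranges of 2.24 to 2.77. For software, probe-set level and genome build the entry is "not given in the sources used here". Groups came from the sample titles.

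Intensities were transformed to log2 without pseudocount. Of 29214 rows, 15310 had 1 gene symbol in the platform annotation, 323 several and 13581 none there, and 15279 of the first matched RefSeq (GRCr8) by gene ID. The brightest row was kept for 527 genes with several, giving 14506 genes. Obese and lean rats were compared by limma 3.58.1 (R 4.3.3; lmFit, eBayes with a trend, no covariate), with Benjamini-Hochberg adjustment over all genes at 0.05. The fit was tested on simulated data. Background was the 95th percentile of 188 olfactory and vomeronasal receptor genes on each array. Named genes are the family, called genes of each pathway list or else the 2 with the smallest p, the 3 brightest markers of a list, and the 5 genes nearest Rgs1. Cluster neighbours, and Pdgfrb, Cspg4, Notch3, Abcc9, Cox4i2, Kcnj8 and Higd1b, were chosen after values were seen. Members and lists were chosen with earlier results of these data known. Alternatives were other normalizations, variance models, filters, row choices, the rat number as a block, a pseudocount of 16 and each rat left out. Promoter sequences are RefSeq's (GRCr8), and all 10 family genes matched. Figures used matplotlib 3.10.9.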

Additional observations from a re-analysis of the deposited data

How the results depend on the processing

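Rgs1 was called under each of the 10 other settings, at 2.00 to 2.80 with adjusted p of 0.0016 to 0.038. Without each rat in turn its difference was 2.26 to 3.22. The number of RGS genes called, 2, became 1 with quantile normalization, over all rows and on the log2(value + 16) scale, Rgs1 being the gene left, and was 2 to 3 with a rat left out, Rgs16 being added without lean rat 1. Over all genes the count of 122 was 75 with quantile normalization, 262 with a robust variance model, 185 over all rows (89 higher, 96 lower, so 48.1% higher against 91.8%), and without a rat 1081 (lean 1), 477 (lean 2), 268 (obese 1) and 356 (obese 2). The 3 calls in the G protein lists became 0 with quantile normalization (limma, 24 at an unadjusted p under 0.05), 6 with a robust variance model, 1 without the lowest 25% of genes, 1 over all rows, 1 on the log2(value + 16) scale, and 3 to 9 with a rat left out (9 without lean rat 1, 6 without lean rat 2). With the rat number as a replicate block there were 327 calls over all genes, 2 among the RGS genes, 6 in the G protein lists and 1 among the other RGS domain genes, Rgs17 (adjusted p = 0.048). The latter count was 0 to 1 with a rat left out, 1 without lean rat 1. Same-numbered rats deviated with a correlation of 0.020 over genes and nothing in the labels pairs them, so the block is only an alternative.

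Some differences turned sign. With quantile normalization Rgs2 was at -0.024, Rgs6 at 0.089, Rgs11 at 0.064 and Snx13 at -0.0015. With median centring Rgs14 was at -0.0039, on the log2(value + 16) scale Rgs7 was at 0.0084, and with the mean of its rows Pdcl was at 0.00098 against -0.49 with its brightest row. With a rat left out Rgs2 ran from -0.50 to 0.77, Rgs14 from -0.061 to 0.20, Rgs7 from -0.68 to 0.64, Rgs9 from -0.44 to 0.013, Rgs11 from -0.14 to 0.052, Rgs12 from -0.48 to 0.13, Rgs20 from -0.62 to 0.0027, Snx13 from -0.38 to 0.72 and Arhgef11 from -0.081 to 0.019. The cause was not tested. Leaving out a rat assumes that the remaining rat of its group varies like the other group, and the mean absolute deviation was 0.131 for obese and 0.230 for lean rats. The number of arrays limits the precision, and signal near background limits the sizes given for Rgs1, Rgs8, Rgs17, Plcb2, Gnat3, Gna14 and Nuf2, among others.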

Other observations

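Genes that respond to cyclic AMP, the messenger that Gi-coupled receptors lower, were measured as well. Of 11 measured, none passed by limma (3 at an unadjusted p under 0.05), with a median of -0.19. The nuclear receptor gene Nr4a3 was at 5.64 and 5.43 in lean and 4.54 and 4.83 in obese rats (-0.85, adjusted p = 0.174). The phosphodiesterase gene Pde4d was at 7.58 and 7.20 in lean and 6.21 and 6.75 in obese rats (-0.91, adjusted p = 0.243). Of 9 other modulators of G proteins none passed (1 at an unadjusted p under 0.05), and Ric8a, which helps alpha subunits fold and load GTP, was at 0.66.

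Rgs5 and Rgs4 are adjacent protein-coding genes on chromosome 13 of GRCr8. Nuf2, a kinetochore gene beside Rgs5, was at 3.74 and 3.89 in lean and 5.07 and 5.35 in obese rats (1.40, adjusted p = 0.042), with lean values within background. Rgs16 has Rgs8 beside it, whose lean values were within background, so the size of its difference is not read here.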
